A study of Mus musculus with 15 samples.

Results

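The amino acid transporter genes of 6 solute carrier families were followed in RNA from mouse retina after optic nerve crush (ONC), an injury to the axons of retinal ganglion cells (RGCs), and after ONC with acupuncture. Members were all genes whose symbol is Slc1a, Slc3a, Slc7a, Slc36a, Slc38a or Slc43a followed by a number, which gave 42 of the 54532 genes in the deposited tables: 7 Slc1a, 2 Slc3a, 15 Slc7a, 4 Slc36a, 11 Slc38a and 3 Slc43a genes. The rule reads gene symbols alone. Every library came from the retina of wild type C57BL/6 mice, whose age is 5 weeks in the sample labels and 6 weeks in the methods. The WT group was naïve. The ONC group had both optic nerves crushed, and the retina was taken 2 days later. The ONC-F, ONC-J and ONC-S groups had the same crush and 3 sessions of acupuncture, at GB20 in ONC-F, at BL1 in ONC-J and at GV16, the sham point, in ONC-S. The methods describe anesthesia with ketamine and xylazine and needling at GB20 or BL1, and give no details for GV16. For ONC mice they describe no anesthesia beyond that for the crush. Needling and the anesthesia given with it therefore cannot be told apart. Each group has 3 libraries, called biological replicates. The methods divide the mice into 4 groups where the tables hold 5, and the ONC-S samples were deposited under numbers apart from the other 12, so a batch of ONC-S libraries and the GV16 treatment cannot be told apart. The methods give 3 mice per group and 3 repeats of the experiment. Whether the replicate numbers follow these repeats is not stated, and pooling of mice within a library is not described. The n given is therefore a number of libraries, and p-values measure the spread between libraries. In the fit of all libraries, this spread is estimated for each gene over all 5 groups. Groups outside a comparison thus also enter its SE and p-value.

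Amino acids enter and leave cells through carriers with overlapping substrates. SLC1 proteins move glutamate, or exchange small neutral amino acids. SLC7 proteins either carry cationic amino acids alone or form light subunits that need an SLC3 heavy subunit to reach the cell surface. SLC38 proteins take up or release glutamine and other neutral amino acids, while several SLC36 and SLC38 proteins sit on lysosomes. In the retina these carriers clear glutamate from synapses and return it as glutamine by way of Müller glia. Many carriers are also targets of ATF4, a transcription factor made when cells lack amino acids or are under endoplasmic reticulum stress, which binds the C/EBP-ATF response element (CARE).

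Total counts ran from 14482435 to 26112762 per library. Genes with enough reads, 19259 in all, were tested in 1 edgeR fit of the 15 libraries, and a gene was called at a Benjamini-Hochberg adjusted p under 0.05 over all of them. Of the 42 members, 35 passed the read filter. Levels are given as FPKM (fragments scaled to library size and gene length) and changes as log2 fold changes from the counts with their SE. The summed FPKM of 16 RGC markers was 396 to 414 in WT and 242 to 255 in ONC, where 12 of the markers were lower and 1 higher. Gap43 read 19.8, 17.6 and 18.7 FPKM in WT and 25.6, 26.4 and 24.6 FPKM in ONC. The 13 Müller glia markers summed to 1566 to 1633 in WT and 1477 to 1570 in ONC, with 0 called. The 10 reactive gliosis markers summed to 57.0 to 62.3 in WT and to 68.2, 225 and 99.7 in ONC replicates 1 to 3, with 1 called (median log2 fold change 1.15), and replicate 2 stood apart with 33.3 FPKM of Gfap. The part of these markers in the member results was not tested. Lens markers stood at 1603 FPKM in WT replicate 1 and at 81.0 or less in the other libraries. In whole retina, fewer cells of a type and less RNA per cell cannot be told apart.

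Promoter sequence was available in the reference table for 31 members, as 42 windows from 250 bases before to 50 after a RefSeq start site (build GRCm38.p6). The windows were searched on both strands for CARE, written TGATGNAA. It occurred in 3.97% of all 32851 windows and in 4 of the 42 member windows (9.52%), which belong to Slc1a4, Slc7a11 and Slc7a7. The Slc7a7 windows with a match overlap and share a site, which is counted in both, so that 3 of the 31 members held a match. These are printed as the members that hold a match, of which Slc1a4 and Slc7a11 are carriers known as ATF4 targets. Each run covers 150 bases before to 10 after the start in the direction of transcription, all on the minus strand, with CARE matches on either strand in capitals.
Slc1a4, chr11:20332704-20332863: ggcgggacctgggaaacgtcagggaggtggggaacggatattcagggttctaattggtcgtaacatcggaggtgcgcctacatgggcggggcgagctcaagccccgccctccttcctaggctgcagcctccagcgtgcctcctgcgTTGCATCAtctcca
Slc7a11, chr3:50443604-50443763: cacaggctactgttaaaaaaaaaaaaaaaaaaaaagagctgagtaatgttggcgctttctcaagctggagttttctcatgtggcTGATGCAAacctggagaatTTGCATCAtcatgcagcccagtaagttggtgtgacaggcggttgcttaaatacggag
Slc7a7, the farthest upstream of its windows, chr14:54417935-54418094: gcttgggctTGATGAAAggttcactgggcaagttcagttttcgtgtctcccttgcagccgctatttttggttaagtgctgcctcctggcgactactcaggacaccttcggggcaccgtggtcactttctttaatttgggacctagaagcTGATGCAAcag

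The match in Slc1a4 lies across the start site, from base -4 to base 4, on the strand opposite to the gene. Slc7a11 holds 2 matches that face each other, at -66 to -59 and at -47 to -40. The windows of Slc3a2, Slc7a1 and Slc38a2 hold no match, and those of Slc7a3 and Slc7a5 were not among the sequences used here. Sequence outside the windows was not searched, so a gene without a match may hold one elsewhere. The antioxidant response element, searched as TGACNNNGC, occurred in 12.4% of all windows and in 14.3% of the member windows. The AP-1 site, searched as TGANTCA, occurred in 7.81% and 9.52%. Both were found in Slc7a1, the element from -11 to -3 and the AP-1 site from -123 to -117. A match of letters is a description of the window and not of a bound site.

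In intact retina the members spanned a wide range of levels, and the leading ones belonged to glutamate and glutamine traffic. Slc38a3, the system N carrier by which Müller glia release glutamine, stood at 150 ± 13.3 FPKM (SD, n = 3). Slc1a7, a glutamate transporter typical of retinal photoreceptors and bipolar cells, followed at 52.2 ± 3.42 FPKM, and Slc3a2, the heavy subunit also called CD98, at 31.0 ± 1.81 FPKM. The ranges of these 3 genes over the WT libraries did not overlap. Slc1a2 at 21.5 ± 1.28 FPKM and Slc1a3, the glutamate transporter of Müller glia, at 21.1 ± 1.15 FPKM could not be ordered, since their ranges overlapped.

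Below them lay Slc38a1 at 14.2 ± 1.07 FPKM and Slc38a2 at 13.5 ± 0.43 FPKM, both system A carriers that take up small neutral amino acids with sodium, whose ranges overlapped too. Of 34 pairs of neighbours in this order, 18 overlapped. The genes that responded most to crush were not among the most abundant. Slc1a4 ranked 22 of 35, Slc7a1 ranked 25 and Slc7a3 ranked 26, while Slc7a5 ranked 10.

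**Figure D1:**
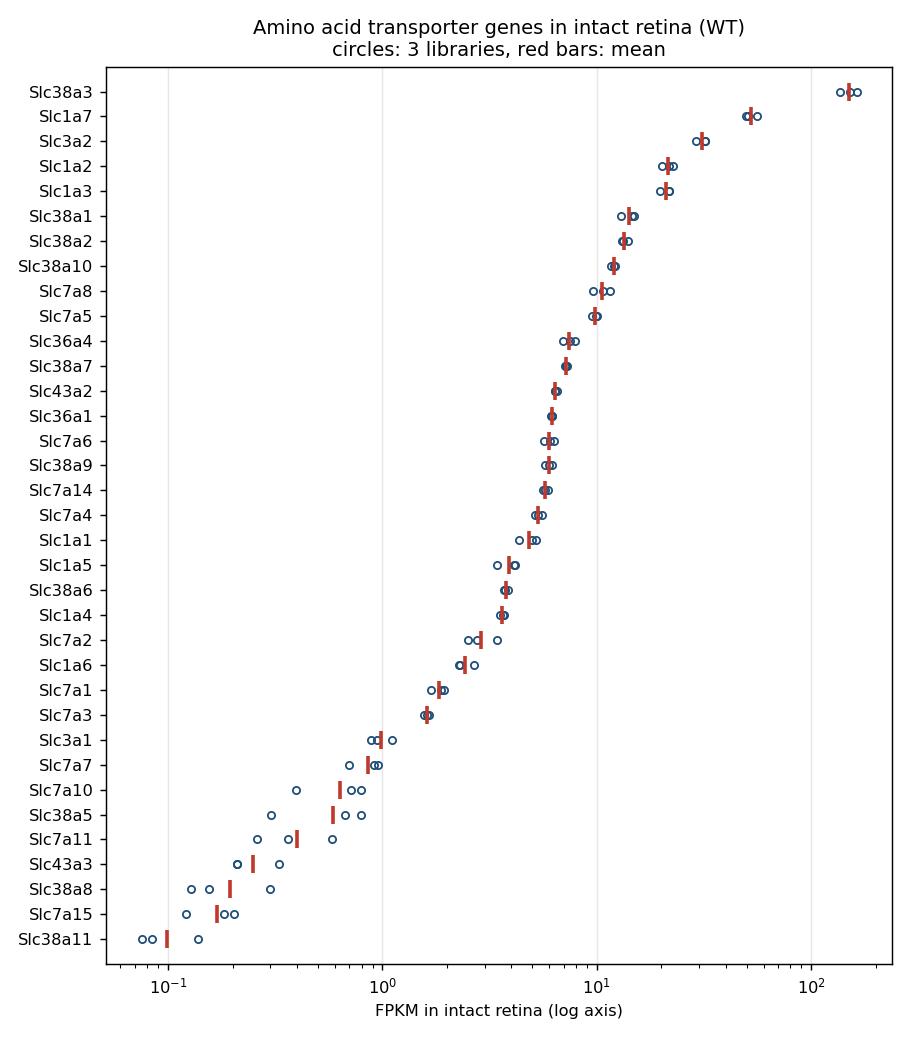
FPKM of the 35 tested members in the 3 WT libraries on a log axis, ordered by mean, with circles for libraries and red bars for means. Levels run from 150 FPKM for Slc38a3 to 0.099 FPKM for Slc38a11, and from Slc3a1 downwards neighbouring genes overlap.

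After ONC, 5 of the 35 tested members rose against WT and 0 fell: Slc7a3, Slc1a4, Slc7a1, Slc7a5 and Slc3a2. Among all genes tested, 0.955% were called higher and 1.16% lower in this comparison. The median log2 fold change was 0.05 over the tested members and -0.0023 over all genes. A further 4 members had an unadjusted p under 0.05 in edgeR without a call. The share of all genes at that cut was not computed. The responders were a neutral amino acid exchanger, a heavy subunit, its light subunit for large neutral amino acids and a pair of cationic carriers.

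Slc1a4 (chr11:20302180-20332713 on GRCm38, as for the other gene positions), an exchanger of serine, alanine and other small neutral amino acids, read 3.65, 3.70 and 3.54 FPKM in WT and 5.80, 6.505 and 6.55 FPKM in ONC. The groups were well apart, with a log2 fold change of 0.79 ± 0.12 (edgeR adjusted p = 0.00044). Its closest relative Slc1a5, a glutamine exchanger, gave -0.08 ± 0.10 (edgeR adjusted p = 0.877, 95% interval -0.29 to 0.14). The 5 glutamate transporters of the family had log2 fold changes from -0.12 for Slc1a2 to 0.13 for Slc1a3, and 0 of them were called. The interval for Slc1a7 was -0.15 to 0.07.

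The heavy subunit Slc3a2 (chr19:8706882-8723369) stood at 32.1, 32.0 and 28.9 FPKM in WT and at 37.3, 37.7 and 35.1 FPKM in ONC. All ONC libraries were above all WT libraries, by 0.24 ± 0.05 on the log2 scale (edgeR adjusted p = 0.0144). This call was lost without WT replicate 3 (adjusted p = 0.107 in edgeR), ONC replicate 1 (0.0562) or ONC replicate 2 (0.0829). Slc7a5 (chr8:121881150-121907694), the light subunit that with Slc3a2 exchanges leucine and other large neutral amino acids for glutamine, read 9.53, 9.955 and 9.999 FPKM in WT. It reached 16.4, 16.2 and 15.4 FPKM in ONC. The change was larger than that of its partner, 0.70 ± 0.11 (edgeR adjusted p = 0.000955); whether the 2 changes differ was not tested.

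Of the other light subunits, 0 of 6 tested were called. Slc7a11, the cystine and glutamate exchanger on which glutathione synthesis draws, had 0.36, 0.26 and 0.58 FPKM in WT and 0.55, 0.75 and 0.61 FPKM in ONC. WT replicate 3 overlapped the ONC libraries, and the log2 fold change of 0.68 ± 0.22 was not called (edgeR adjusted p = 0.148). It was called without WT replicate 3, with no filter on low counts and with limma-voom. Slc7a8, a light subunit that carries both large and small neutral amino acids, gave 0.04 ± 0.07, and Slc7a6, which exchanges cationic for neutral amino acids, 0.15 ± 0.08.

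Among cationic carriers, which bring in arginine and lysine, Slc7a3 (chrX:101079210-101086020) had the largest change among the called members in this comparison. It read 1.57, 1.61 and 1.65 FPKM in WT and 3.31, 3.13 and 3.10 FPKM in ONC, 1.97-fold higher (log2 0.98 ± 0.15, edgeR adjusted p = 0.000447). Slc7a1 (chr5:148327410-148399904), the widely expressed arginine and lysine carrier, had 1.88, 1.94 and 1.69 FPKM in WT and 2.89, 3.03 and 3.07 FPKM in ONC. Its groups did not overlap and the log2 fold change was 0.70 ± 0.16 (edgeR adjusted p = 0.0223). The Slc7a1 call was lost on leaving out any WT library, ONC replicate 2 or ONC replicate 3, with edgeR adjusted p between 0.0597 and 0.107, while the log2 fold change stayed between 0.65 and 0.74.

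Slc7a2 gave -0.12 ± 0.12. Slc7a14, a lysosomal member of the family linked to inherited retinal degeneration, read 5.61, 5.95 and 5.72 FPKM in WT and 6.45, 6.30 and 7.003 FPKM in ONC, and was not called (0.19 ± 0.06, edgeR adjusted p = 0.123). Slc7a4, whose substrate is not established, pointed down. Its WT libraries read 5.17, 5.34 and 5.54 FPKM and its ONC libraries 4.17, 4.69 and 4.24 FPKM, a difference of -0.30 ± 0.09 that was not called in ONC against WT (edgeR adjusted p = 0.12). Both Slc7a14 and Slc7a4 were called in ONC against WT with limma-voom. Exons of Slc7a4 overlap P2rx6 on the opposite strand over 13.3% of their length.

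The glutamine carriers were not called after crush alone. Slc38a2, the system A carrier induced by amino acid shortage, had 13.3, 13.9 and 13.1 FPKM in WT and 15.2, 15.7 and 15.04 FPKM in ONC. These groups did not overlap, but the log2 fold change of 0.18 ± 0.14 was not called (edgeR adjusted p = 0.709). Slc38a1 gave 0.11 ± 0.07, Slc38a3 -0.06 ± 0.07 and Slc38a9, the lysosomal arginine sensor, 0.05 ± 0.06. The proton-coupled Slc36a1 and Slc36a4 gave -0.12 ± 0.07 and -0.02 ± 0.08. Slc43a2, a leucine and phenylalanine carrier, gave -0.22 ± 0.11 (edgeR adjusted p = 0.491), and was called only with no filter on low counts.

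**Figure D2:**
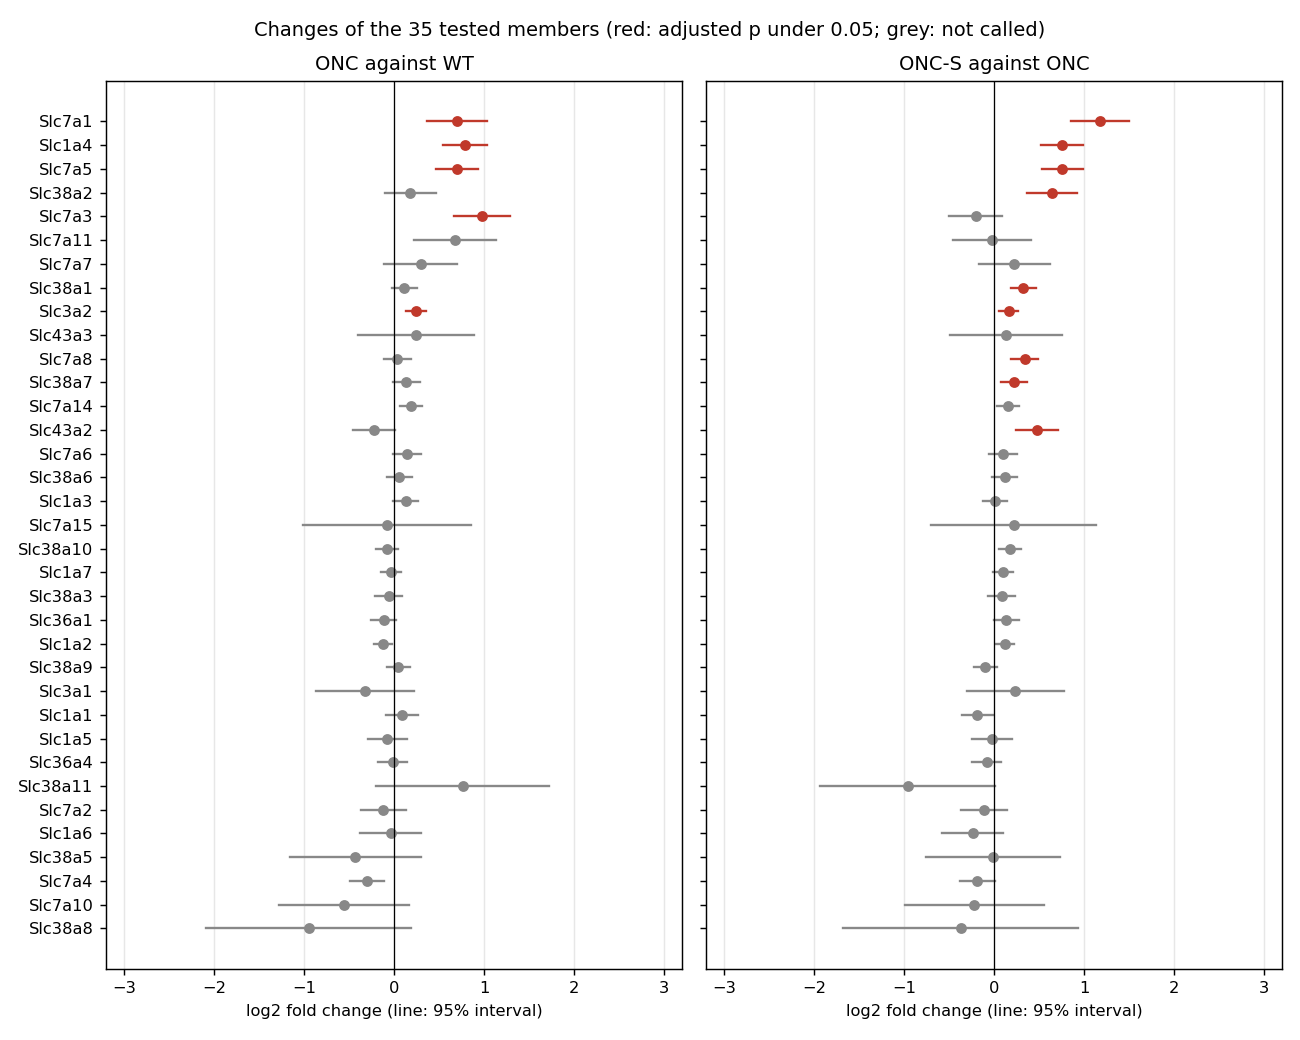
Log2 fold change of each tested member in ONC against WT (left) and ONC-S against ONC (right), with the 95% interval as a line and called members in red. Slc7a1, Slc1a4, Slc7a5 and Slc3a2 are red in both panels, Slc7a3 at 0.98 on the left and -0.21 on the right.

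Members differed from ONC in the group with sham acupuncture at GV16. In ONC-S, 9 of 35 were higher than in ONC and 0 lower: Slc7a1, Slc7a5, Slc1a4, Slc38a2, Slc43a2, Slc7a8, Slc38a1, Slc38a7 and Slc3a2. This comparison had many calls throughout, 7.6% of all genes higher and 6.89% lower. The median log2 fold change was 0.12 over the tested members and -0.01 over all genes. Cell type markers moved in the same comparison: 3 of 8 cone, 4 of 10 bipolar, 5 of 12 endothelial, 5 of 8 pericyte and 1 of 8 pigment epithelium markers were lower, while 3 of 9 rod, 2 of 16 RGC and 1 of 12 endothelial markers were higher and amacrine markers had 1 call each way. The endothelial marker that rose was Flt1, from 5.78, 4.76 and 5.59 FPKM in ONC to 7.49, 7.76 and 7.42 FPKM in ONC-S. Summed pericyte markers were 20.3 to 20.7 FPKM in ONC and 11.7 to 17.7 FPKM in ONC-S, summed endothelial markers 112 to 127 and 85.2 to 97.6 FPKM. The 5 red blood cell markers summed to 8.87 to 16.4 FPKM in ONC and 21.5 to 30.2 FPKM in ONC-S with 0 called. The part of these markers in the member results was not tested.

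Slc7a1 had the largest change of the called members. It read 6.45, 6.76 and 7.13 FPKM in ONC-S, all more than any ONC library, a 2.26-fold difference (log2 1.17 ± 0.15, edgeR adjusted p = 7.03e-05). Slc7a5 rose to 24.8, 26.8 and 29.7 FPKM (0.76 ± 0.11, edgeR adjusted p = 0.000173). Slc1a4 rose to 9.23, 11.4 and 11.2 FPKM (0.75 ± 0.11, edgeR adjusted p = 0.00021). For these 3 carriers the intact, crushed and sham-treated groups thus formed 3 separate levels. Slc38a2, not called after crush alone, stood at 22.1, 26.5 and 23.2 FPKM in ONC-S, 0.64 ± 0.13 above ONC (edgeR adjusted p = 0.00333).

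The other system A carrier Slc38a1 read 16.4, 14.3 and 15.5 FPKM in ONC and 20.9, 18.8 and 18.2 FPKM in ONC-S (0.32 ± 0.07, edgeR adjusted p = 0.00307). Slc7a8 read 10.8, 11.3 and 10.485 FPKM in ONC and 14.48, 13.7 and 13.1 FPKM in ONC-S (0.34 ± 0.07, edgeR adjusted p = 0.00345). Both groups of libraries were apart for both genes. Slc43a2 read 5.67, 5.20 and 5.65 FPKM in ONC and 8.69, 6.97 and 7.30 FPKM in ONC-S (0.47 ± 0.11, edgeR adjusted p = 0.00739). Its WT libraries lay between, at 6.36, 6.36 and 6.502 FPKM, and its ONC-F libraries read 7.90, 6.01 and 6.40 FPKM. ONC-S against WT was not called (edgeR adjusted p = 0.108), although it was with no filter on low counts and with edgeR or DESeq2 on only those 6 libraries. A transcript on the opposite strand overlaps 9.18% of the Slc43a2 exons.

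The remaining increases were small. Slc38a7, a lysosomal glutamine exporter, read 7.18, 7.15 and 7.29 FPKM in WT, 8.65, 7.67 and 7.48 FPKM in ONC and 9.31, 9.28 and 9.21 FPKM in ONC-S. In ONC-F it read 8.33, 8.68 and 7.30 FPKM and in ONC-J 8.26, 8.40 and 7.61 FPKM. Its difference between ONC-S and ONC was 0.22 ± 0.07 (edgeR adjusted p = 0.0432) and was lost without ONC replicate 2 or 3 or any ONC-S library, with adjusted p up to 0.188 in edgeR. Slc3a2 read 42.7, 39.8 and 40.7 FPKM in ONC-S, 0.16 ± 0.05 above ONC (edgeR adjusted p = 0.0483), a call lost on leaving out any 1 of the 6 libraries, with edgeR adjusted p between 0.0665 and 0.202.

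Slc7a3 did not follow the other cationic carrier. Its ONC-S libraries read 2.98, 2.79 and 2.53 FPKM, all below the ONC libraries, and the difference of -0.21 ± 0.14 was not called (edgeR adjusted p = 0.362, 95% interval -0.50 to 0.09). Slc7a11 read 0.63, 0.66 and 0.60 FPKM in ONC-S, within the ONC range. The 5 glutamate transporters again had 0 calls, with log2 fold changes from -0.24 for Slc1a6 to 0.12 for Slc1a2, and Slc38a3 gave 0.08 ± 0.07 with an interval of -0.07 to 0.23.

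**Figure D3:**
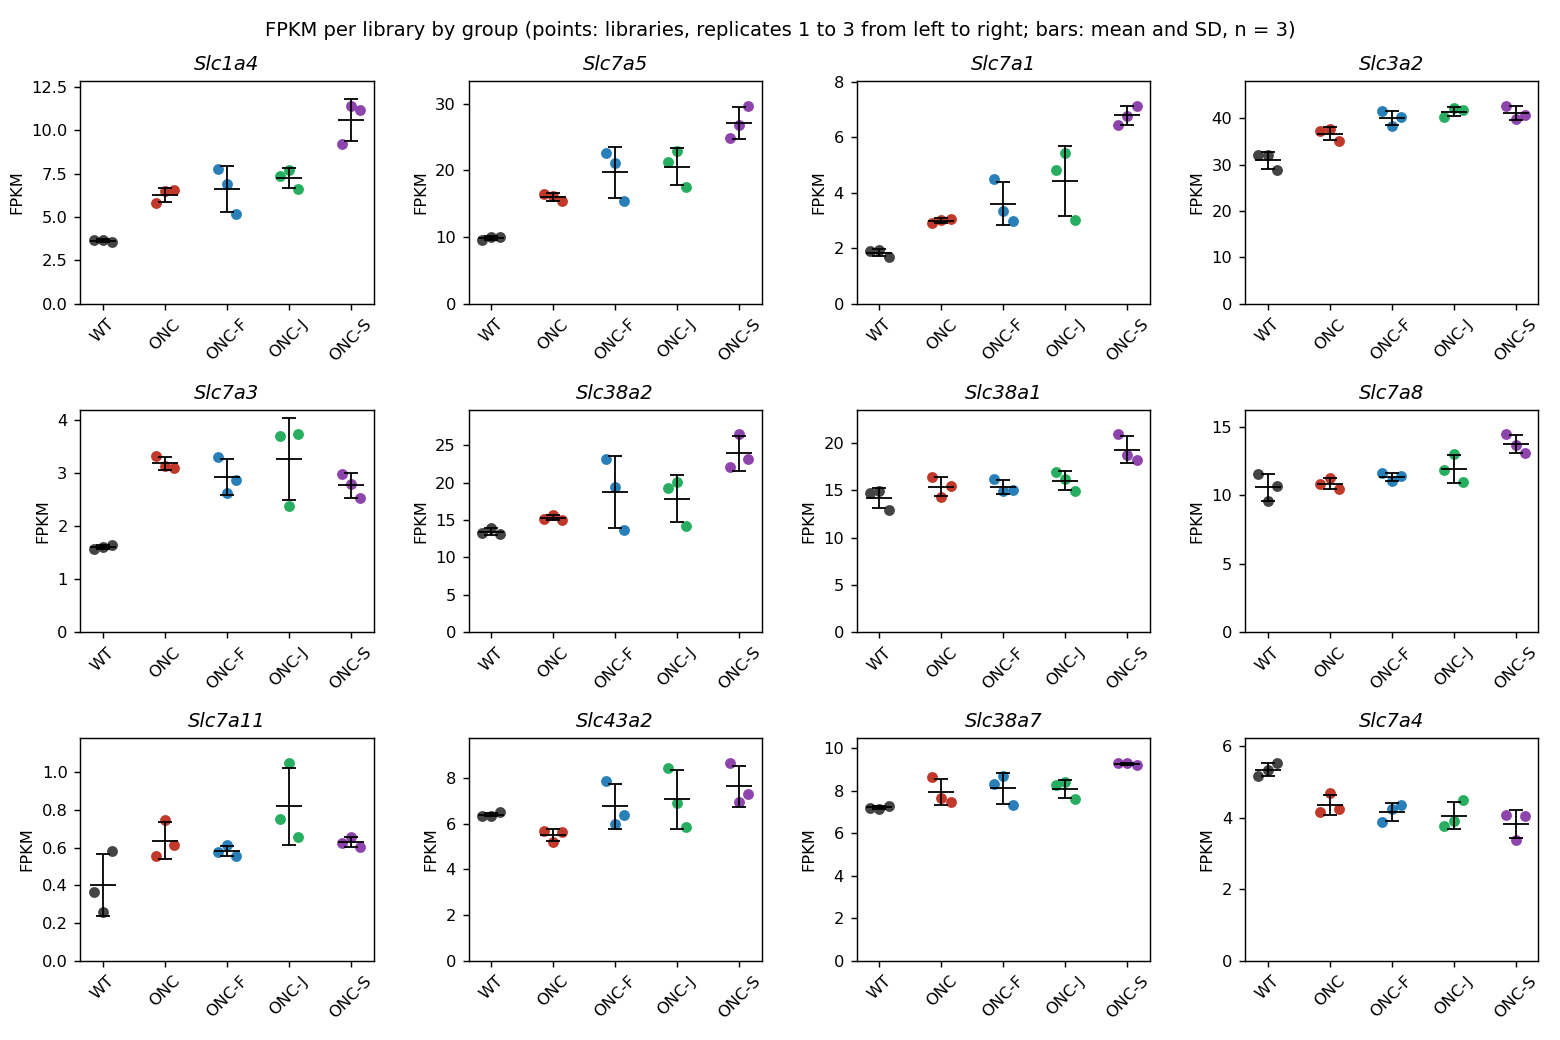
FPKM of 12 members in every library by group, with points for replicates 1 to 3 and bars for the mean and SD. Slc1a4, Slc7a5 and Slc7a1 are highest in ONC-S, Slc7a3 lies between 2.37 and 3.73 FPKM in all crushed libraries against 1.57 to 1.65 FPKM in WT, and replicate 3 is the lowest library of its group for Slc38a2, Slc7a5 and Slc7a1 in both ONC-F and ONC-J.

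Acupuncture at GB20 gave no called member against ONC. In ONC-F, 0 of 35 members were called in edgeR, beside 0.00519% of all genes called higher and 0% lower. An unadjusted p under 0.05 in edgeR, a cut for which the share of all genes was not computed, was found for 4 members. These were Slc7a5, Slc43a2, Slc3a2 and Slc38a2, each with a higher mean in ONC-F. Slc7a5 read 22.6, 21.1 and 15.4 FPKM in ONC-F against 16.4, 16.2 and 15.4 FPKM in ONC. The first pair of ONC-F libraries stood above ONC and the third within it, giving 0.30 ± 0.11 (edgeR adjusted p = 0.475, interval 0.06 to 0.53). Slc38a2 read 23.1, 19.4 and 13.6 FPKM in ONC-F, so that 1 library was below every ONC library and the others above.

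Slc1a4 spread the same way, with 7.80, 6.90 and 5.19 FPKM in ONC-F (0.07 ± 0.11 against ONC, interval -0.17 to 0.31). Slc7a1 read 4.496, 3.33 and 2.997 FPKM (0.26 ± 0.16, interval -0.07 to 0.58) and Slc7a3 read 3.30, 2.63 and 2.87 FPKM (-0.13 ± 0.14). Slc3a2 was even among the ONC-F libraries, at 41.5, 38.4 and 40.3 FPKM, with 0.12 ± 0.05 against ONC (edgeR adjusted p = 0.545). ONC-F replicate 1 was also the highest and replicate 3 the lowest library of the group for Atf4 (135, 113 and 99.6 FPKM) and its target Trib3 (8.24, 5.18 and 4.70 FPKM). Of the other listed regulators and non-transporter targets of ATF4, Ddit3, Atf3, Chac1, Sesn2, Psat1, Phgdh, Cebpg and Eif2ak3 kept this order. Atf5, Asns, Nupr1, Cebpb, Eif2ak4 and Ppp1r15a did not, with Atf5 at 15.3, 18.2 and 15.2 FPKM. The RGC markers of replicate 3 summed to 311 FPKM, against 250 and 264 FPKM in the other ONC-F libraries and at most 268 FPKM in any other crushed library, with Sncg at 48.8 FPKM against 29.9 and 33.5 FPKM. The part of these markers in the member results was not tested. With no filter on low counts, 3 of the members were called higher in ONC-F than in ONC: Slc7a5, Slc43a2 and Slc38a2. The share of all genes called in that fit was not computed.

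Acupuncture at BL1 also gave 0 of 35 members called against ONC, beside 0.104% of all genes called higher and 0.0208% lower. In edgeR, 6 members had an unadjusted p under 0.05, again without a computed share of all genes at that cut. The smallest p belonged to Slc7a1, which read 4.83, 5.44 and 3.01 FPKM in ONC-J against 2.89, 3.03 and 3.07 FPKM in ONC. Replicates 1 and 2 were above ONC and replicate 3 inside it (0.56 ± 0.15, edgeR adjusted p = 0.204, interval 0.24 to 0.88). Slc7a5 read 21.3, 22.9 and 17.5 FPKM in ONC-J, each above the ONC libraries (0.36 ± 0.11, edgeR adjusted p = 0.299). Slc7a5 was called when ONC-J was set against ONC with DESeq2 on only those 6 libraries. Without ONC-J replicate 3, Slc7a1 was called in edgeR, and with no filter on low counts 4 members were: Slc7a1, Slc7a5, Slc38a2 and Slc43a2. For these alternative fits the share of all genes called was not computed.

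Slc43a2 read 8.45, 6.91 and 5.87 FPKM in ONC-J (0.36 ± 0.11) and Slc3a2 read 40.3, 42.2 and 41.7 FPKM (0.17 ± 0.05), both not called. Slc1a4 stood at 7.40, 7.72 and 6.62 FPKM, just above ONC (0.20 ± 0.11, interval -0.03 to 0.44), and Slc38a2 at 19.3, 20.045 and 14.2 FPKM. Slc7a3 was uneven, with 3.70, 2.37 and 3.73 FPKM. Its low library was replicate 2, not replicate 3.

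Set against WT, the crushed groups shared a core of carriers, and these comparisons share their WT libraries. In ONC-F, 5 members were higher and 1 lower (background 1.03% and 0.981%), in ONC-J 6 higher and 1 lower (1.86% and 1.76%), and in ONC-S 12 higher and 1 lower (11.6% and 11.7%). Slc1a4, Slc3a2, Slc7a1, Slc7a3 and Slc7a5 were called higher in each. For Slc7a1 the log2 fold change against WT was 0.70 after crush alone, 0.96 with GB20, 1.26 with BL1 and 1.87 with GV16. In the same order the values of Slc7a5 were 0.70, 0.99, 1.06 and 1.46, and those of Slc1a4 0.79, 0.86, 0.99 and 1.54. Slc7a3 lay between 0.77 and 1.01 in all 4 and Slc3a2 between 0.24 and 0.41.

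Slc7a4 was the lower gene in all 3 treated groups. It read 3.88, 4.25 and 4.35 FPKM in ONC-F, 3.77, 3.92 and 4.497 FPKM in ONC-J and 4.06, 3.38 and 4.05 FPKM in ONC-S, all below the WT libraries. The log2 fold changes were -0.36 ± 0.09 (edgeR adjusted p = 0.0413), -0.40 ± 0.09 (0.0135) and -0.48 ± 0.09 (0.000739). The ONC-F call was lost without any WT library, ONC-F replicate 1 or ONC-F replicate 2 (edgeR adjusted p between 0.0818 and 0.205), and the ONC-J call without WT replicate 2 or 3 or ONC-J replicate 1 or 2 (0.0521 to 0.0766).

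Slc7a11 was called in ONC-J, where its libraries read 0.75, 1.05 and 0.66 FPKM (1.04 ± 0.21, edgeR adjusted p = 0.00657), and in ONC-S (0.65 ± 0.22, edgeR adjusted p = 0.0341). Without ONC-J replicate 2, the highest library, the first gave 0.82 and was not called (edgeR adjusted p = 0.0679), nor was it with DESeq2 on only the 6 libraries (adjusted p = 0.127). The ONC-S call was lost without WT replicate 1 or 2 or any ONC-S library, with edgeR adjusted p up to 0.192, and its log2 fold change was 0.40 without WT replicate 2. In ONC-F the libraries read 0.58, 0.61 and 0.56 FPKM. Slc7a11 was not called there, although it was with no filter on low counts or without WT replicate 3.

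In ONC-S, 6 more members were called higher than in WT, namely Slc38a2 (0.82 ± 0.13), Slc38a1 (0.44 ± 0.07), Slc7a8 (0.37 ± 0.07), Slc38a7 (0.36 ± 0.07), Slc7a14 (0.34 ± 0.06) and Slc7a6 (0.24 ± 0.07). WT libraries read 14.7, 14.9 and 13.0 FPKM for Slc38a1 and 11.5, 9.58 and 10.7 FPKM for Slc7a8. Slc7a14 read 7.60, 7.18 and 7.22 FPKM in ONC-S and lay above its WT libraries by a margin wider than their spread. Slc7a6 read 6.34, 6.06 and 5.65 FPKM in WT, 6.57, 7.01 and 6.43 FPKM in ONC and 6.45, 7.63 and 7.41 FPKM in ONC-S. In ONC-F it read 6.73, 6.64 and 6.32 FPKM and in ONC-J 5.89, 6.79 and 6.12 FPKM. Its call (edgeR adjusted p = 0.0244) was lost without WT replicate 2 or 3 or ONC-S replicate 2 or 3, with edgeR adjusted p up to 0.115.

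**Figure D4:**
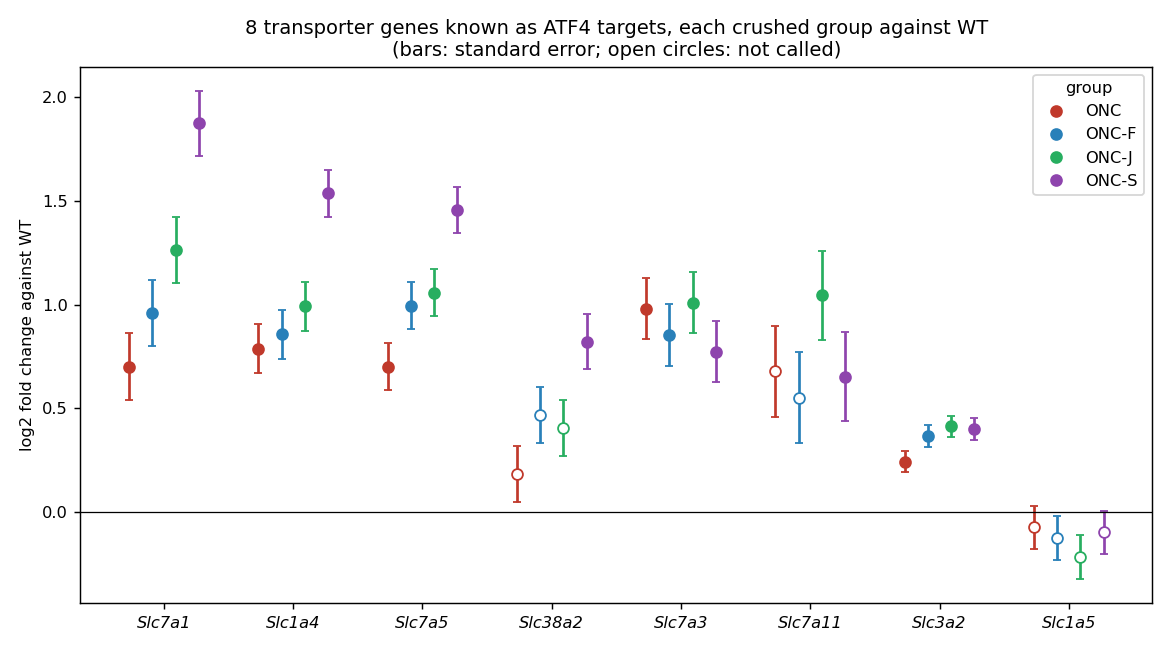
Log2 fold change against WT of 8 transporter genes known as ATF4 targets in the 4 crushed groups, with SE bars, filled where called. Slc7a1, Slc1a4 and Slc7a5 are highest in ONC-S (1.87, 1.54 and 1.46), Slc7a3 lies between 0.77 and 1.01 and Slc3a2 between 0.24 and 0.41 in all 4 groups, and Slc1a5 is called in none.

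The acupuncture groups were then compared with each other. Against ONC-S, 0 members were higher and 8 lower in ONC-F (background 7.03% higher and 7.6% lower), and 0 higher and 9 lower in ONC-J (6.28% and 6.62%). Markers moved here too. Of 8 pigment epithelium markers, 5 were higher than in ONC-S in both groups, with sums of 61.7 to 102 FPKM in ONC-F and 68.9 to 93.5 FPKM in ONC-J against 35.9 to 54.0 FPKM in ONC-S. Pericyte markers were higher for 4 of 8 in ONC-F and 2 of 8 in ONC-J, and cone markers for 3 of 8 in both. Bipolar markers were higher for 4 of 10 in ONC-F and 3 of 10 in ONC-J, and rod markers lower for 2 of 9 and 3 of 9. Endothelial markers had 2 of 12 higher and 1 lower in both. RGC markers had 2 of 16 higher in ONC-F and 1 call each way in ONC-J. Müller glia, amacrine, horizontal and red blood cell markers also had calls. The part of these markers in the member results was not tested. Slc7a1 was lower by -0.92 ± 0.15 in ONC-F (edgeR adjusted p = 0.000517) and by -0.61 ± 0.15 in ONC-J (edgeR adjusted p = 0.0102). For Slc1a4 the differences were -0.68 ± 0.11 (edgeR adjusted p = 0.000477) and -0.55 ± 0.11 (edgeR adjusted p = 0.00289). For Slc7a5 they were -0.46 ± 0.11 (edgeR adjusted p = 0.00727) and -0.40 ± 0.11 (edgeR adjusted p = 0.0197). The ONC-S libraries of these 3 genes were above every ONC-F and ONC-J library. The Slc7a5 difference from ONC-J was lost without ONC-J replicate 3 (-0.29, edgeR adjusted p = 0.114), ONC-S replicate 2 (0.0625) or ONC-S replicate 3 (0.091). With DESeq2 on only the 6 libraries, Slc7a5 in ONC-F (adjusted p = 0.0722) and Slc7a1 in ONC-J (adjusted p = 0.107) were not called.

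Slc38a1 was lower in both, with 16.2, 14.9 and 15.005 FPKM in ONC-F and 16.9, 16.2 and 14.9 FPKM in ONC-J (-0.33 ± 0.07 and -0.27 ± 0.07). The second of these was lost without ONC-J replicate 3 (edgeR adjusted p = 0.0749) or ONC-S replicate 1 (0.0805). Slc7a8 was lower in ONC-F, with 11.7, 11.0 and 11.4 FPKM (-0.27 ± 0.07), a call lost without ONC-F replicate 2 (edgeR adjusted p = 0.06) or ONC-S replicate 1 (0.0602). In ONC-J it read 11.8, 13.0 and 11.0 FPKM and was not called. Slc38a2 was called lower in ONC-J (-0.42 ± 0.13, edgeR adjusted p = 0.0448), a call lost on leaving out any of 5 of the 6 libraries and with DESeq2 (adjusted p = 0.0814). Without ONC-J replicate 3 its difference was -0.28 (edgeR adjusted p = 0.219). In ONC-F it was -0.35 ± 0.13 and not called (edgeR adjusted p = 0.0852), although it was with no filter on low counts or without ONC-F replicate 1.

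Further members were called here, most with small differences. Slc38a10, a less studied SLC38 protein, read 11.5, 11.0 and 10.6 FPKM in ONC-F, 11.6, 9.91 and 10.9 FPKM in ONC-J and 12.6, 12.7 and 13.2 FPKM in ONC-S (-0.22 ± 0.06 and -0.25 ± 0.06). Its libraries read 12.2, 12.1 and 11.7 FPKM in WT and 12.01, 11.4 and 10.7 FPKM in ONC. ONC-S against ONC was just short of a call (0.17 ± 0.06, edgeR adjusted p = 0.0587) and was called with DESeq2, limma-voom, offsets for GC content and length, or without ONC replicate 1. Slc38a6 read 3.86, 3.70 and 3.52 FPKM in ONC-F, 3.71, 3.62 and 3.29 FPKM in ONC-J and 4.18, 4.59 and 4.06 FPKM in ONC-S (-0.21 ± 0.07 and -0.27 ± 0.07). It read 3.84, 3.71 and 3.72 FPKM in WT and 4.03, 3.89 and 3.85 FPKM in ONC. Neither gene was called against WT in edgeR, while limma-voom called Slc38a6 in ONC-S (0.18 ± 0.07, edgeR adjusted p = 0.0594).

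Slc36a1, a lysosomal exporter of small amino acids, was lower in ONC-J than in ONC-S (-0.25 ± 0.07, edgeR adjusted p = 0.0162), with 5.78, 4.84 and 5.17 FPKM in ONC-J, 6.17, 6.08 and 6.52 FPKM in ONC-S, 5.46, 5.60 and 5.86 FPKM in ONC-F, 5.70, 5.65 and 5.73 FPKM in ONC and 6.19, 6.17 and 6.10 FPKM in WT. ONC-J against WT gave -0.23 ± 0.07 (edgeR adjusted p = 0.0555) and was called with a minimum of 1 CPM (counts scaled to library size), with the offsets or without ONC-J replicate 1. Slc7a7, which exports cationic amino acids and overlaps Oxa1l on the opposite strand over 7% of its exons, was also lower in ONC-J. It read 0.92, 0.66 and 0.86 FPKM there and 0.99, 1.56 and 1.21 FPKM in ONC-S (-0.62 ± 0.19, edgeR adjusted p = 0.0391). In WT it read 0.70, 0.96 and 0.91 FPKM, in ONC 0.96, 1.12 and 1.10 FPKM and in ONC-F 0.96, 0.999 and 0.89 FPKM. Its ONC-S against WT difference of 0.52 ± 0.19 was not called (edgeR adjusted p = 0.0524), although it was with RLE factors, a minimum of 1 CPM, limma-voom or without ONC-S replicate 1. Slc7a14 was lower in ONC-F, with 6.56, 5.92 and 6.67 FPKM (-0.20 ± 0.06, edgeR adjusted p = 0.026), and read 6.41, 6.73 and 6.42 FPKM in ONC-J.

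These smaller calls did not hold on leaving out 1 of several libraries, with differences of the same sign. Those of Slc38a6 and Slc7a14 in ONC-F and of Slc36a1 and Slc7a7 in ONC-J were also lost with edgeR or DESeq2 on only 6 libraries. DESeq2 on 6 libraries ended the Slc38a6 call in ONC-J (adjusted p = 0.0638). The Slc38a6 call in ONC-F was further lost with DESeq2 on all libraries (adjusted p = 0.0535) and in edgeR with no filter on low counts (adjusted p = 0.119). Slc38a10 in ONC-F was lost without replicate 2 or 3 of either group (-0.22 to -0.20, edgeR adjusted p between 0.0588 and 0.074), and in ONC-J without ONC-J replicate 2 (-0.19, edgeR adjusted p = 0.056). Slc38a6 in ONC-F was lost without ONC-F replicate 2 or 3 or ONC-S replicate 1 or 2 (-0.22 to -0.15, edgeR adjusted p between 0.0722 and 0.218), and in ONC-J without ONC-J replicate 3 (0.0732) or ONC-S replicate 2 (0.0835). Slc36a1 was lost without ONC-J replicate 2 or 3 or ONC-S replicate 3 (-0.24 to -0.19, edgeR adjusted p between 0.0624 and 0.0838). Slc7a7 was lost without replicate 2 or 3 of either group (-0.66 to -0.44, edgeR adjusted p between 0.0743 and 0.201). Slc7a14 was lost without ONC-F replicate 2 or ONC-S replicate 1 or 2 (-0.20 to -0.14, edgeR adjusted p between 0.0606 and 0.143), and offsets for GC content and length gave -0.13 (edgeR adjusted p = 0.111). Between ONC-F and ONC-J, 0 members were called in edgeR, beside 0% of all genes higher and 0% lower. Only 1 member, Slc7a11, had an unadjusted p under 0.05 in edgeR (-0.49 ± 0.21). The share of all genes at that cut was not computed.

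Other genes of the ATF4 arm were read beside the carriers. Of 16 regulators and non-transporter targets, 10 were higher in ONC than in WT and 0 lower, beside 0.955% and 1.16% of all genes, with a median log2 fold change of 0.76. Chac1, which degrades glutathione, rose from 0.89 ± 0.22 to 9.07 ± 0.61 FPKM (SD, n = 3), the transcription factor Atf3 from 2.10 ± 0.15 to 14.1 ± 2.53 FPKM, Atf5 from 7.27 ± 0.20 to 16.6 ± 0.38 FPKM and Ddit3, a mediator of stress-induced death, from 21.5 ± 0.70 to 39.3 ± 1.46 FPKM. In ONC-S, 7 of the 16 were higher than in ONC and 0 lower, beside 7.6% and 6.89% of all genes, with a median of 0.23. Trib3, an inhibitor of the arm, gave 0.95 ± 0.18, Atf3 0.73 ± 0.13, Atf4 itself 0.45 ± 0.09 and Ddit3 0.29 ± 0.07, whereas Chac1 gave 0.00 ± 0.13. Of the 8 member genes known as ATF4 targets, 5 were higher in each of these comparisons, Slc7a3 in the first only and Slc38a2 in the second only.

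The 7 members below the read filter were close to absent. Slc36a3 and Slc7a12 had 0 counts in all libraries, which allows up to 3 counts of 298970085, or 0.01 CPM, for counting error only. Slc7a9 and Slc7a13, light subunits of kidney epithelium, had 5 counts each in all libraries together, and Slc36a2 had 12. Slc38a4, the system A carrier of liver, had 47 and Slc43a1 had 79, with at most 10 and 12 counts in a library. Among the tested members that were called nowhere, Slc1a1 and Slc3a1 share 31.9% and 26.5% of their exon length with genes on the opposite strand, and Slc7a10 shares 17.9% with Lrp3. The sources used here do not state whether strand was used in counting, so reads of such pairs may be mixed.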

How the data were processed

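RNA was sequenced from 15 mouse retina libraries, 3 in each of 5 groups taken from the sample labels. Per the methods and labels, the authors aligned paired-end reads of poly-A RNA to mm10 with HISAT2 2.0.5 and counted fragments per gene with featureCounts; the annotation release and strand setting are not given in the sources used here. The deposited count values are unnormalized. The deposited FPKM values were computed by the authors from counts and gene length; lengths implied by them lay within 10% of GENCODE M21 exon lengths for 97.4% of tested genes with annotation and for 34 of the 35 tested members. FPKM was used for levels only.

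Total counts were 14482435 to 26112762 per library, which limits precision for low genes such as Slc7a11 (89 to 323 counts). Counts were kept by filterByExpr (minimum count 10, minimum total 15), scaled by TMM (factors 0.966 to 1.03) and fitted by the quasi-likelihood test of edgeR 4.0.16 in R 4.3.3 over all libraries with no covariate (10 residual and 8.95 prior degrees of freedom). P-values were adjusted by the Benjamini-Hochberg method over 19259 genes, and intervals are at 95%. The study's methods used DESeq2 for each comparison. Alternatives were DESeq2 1.42.0, RLE factors, other filters, fits of 6 libraries, limma 3.58.1 voom with sample weights, a replicate block, leaving out each library, and, added after the data had been seen, DESeq2 on 6 libraries and offsets for GC content and length. The scripts were tested on simulated data. Libraries of a group differed by a chi-square of 2.95 to 8.3 per degree of freedom, so none is a copy.

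Coordinates are those of GRCm38 (mm10) from GENCODE M21, promoters from RefSeq GRCm38.p6. Every member was named or counted, and those called in any comparison are given in each library. From other gene lists up to 4 genes with the smallest p are named, and more from the list of ATF4 regulators and targets. The members and lists were chosen with earlier results of these data known.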

Additional observations from a re-analysis of the deposited data

Results flagged for a closer look

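Differences between the acupuncture groups under the same crush were tested directly, each with 3 libraries against 3. Of these, 17 met an adjusted p under 0.05 in edgeR, each lower than in ONC-S. In ONC-F against ONC-S the log2 differences were -0.92 for Slc7a1, -0.68 for Slc1a4, -0.46 for Slc7a5, -0.33 for Slc38a1, -0.27 for Slc7a8, -0.22 for Slc38a10, -0.21 for Slc38a6 and -0.20 for Slc7a14. In ONC-J against ONC-S they were -0.62 for Slc7a7, -0.61 for Slc7a1, -0.55 for Slc1a4, -0.42 for Slc38a2, -0.40 for Slc7a5, -0.27 for Slc38a1, -0.27 for Slc38a6, -0.25 for Slc36a1 and -0.25 for Slc38a10. Among all genes tested, 7.03% were higher and 7.6% lower in ONC-F than in ONC-S, and 6.28% higher and 6.62% lower in ONC-J. Both comparisons share the ONC-S libraries, for which a batch and the GV16 treatment cannot be told apart. The part of the cell type markers that differ between ONC-S and the other groups was not tested.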

How the results depend on the processing

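The 57 member calls gave 912 values under 16 alternatives each. Of these, 812 kept the direction and the call, 100 kept the direction only and 0 reversed, and 35 calls held under all alternatives run. The number of members called in ONC against WT was 5 and became 8 with limma-voom; over the fits that left out 1 library it ran from 3 to 4, lowest without ONC replicate 2. With no filter on low counts, 3 members instead of 0 were called in ONC-F against ONC, 4 instead of 0 in ONC-J against ONC and 1 instead of 0 in ONC-F against ONC-J. DESeq2 on 6 libraries, chosen after seeing the data, called 1 in ONC-J against ONC, 5 instead of 8 in ONC-F against ONC-S and 4 instead of 9 in ONC-J against ONC-S. Leaving out 1 library gave 0 to 1 in ONC-J against ONC (1 without ONC-J replicate 3), 4 to 9 in ONC-F against ONC-S (4 without ONC-F replicate 2) and 3 to 8 in ONC-J against ONC-S (3 without ONC-J replicate 3). The cause was not tested, and the share of all genes called under each alternative was not computed. Deviations of libraries with the same replicate number correlated between -0.09 and 0.18. The same number was the best match of every library in ONC-F against ONC (0.0365 to 0.0889) and in ONC-F against ONC-J (0.0558 to 0.182). In the other comparisons it was not the best match of every library. A replicate block called 5 members in ONC against WT and 10 in ONC-S against ONC. It called 9 in ONC-F against ONC-S and 15 in ONC-S against WT. It added Slc38a10 in ONC-S against ONC, Slc38a2 in ONC-F against WT and against ONC-S, Slc36a1 in ONC-J against WT, and Slc38a6 and Slc43a2 in ONC-S against WT. Offsets for GC content and length, also added after seeing the data, gave 5 in ONC against WT and 10 in ONC-S against ONC. They ended the calls of Slc7a11 in ONC-S against WT (edgeR adjusted p = 0.0518), Slc38a6 (0.0994) and Slc7a14 (0.111) in ONC-F against ONC-S and Slc38a2 in ONC-J against ONC-S (0.0508). Low counts limit Slc7a11, Slc7a7 and the members under 1 FPKM.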

Other observations

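Other genes of amino acid handling were read beside the members. Among all genes tested, 0.955% were higher and 1.16% lower in ONC than in WT, and 7.6% higher and 6.89% lower in ONC-S than in ONC. Of 21 tested amino acid transporters of other families, 0 were higher and 1 lower in ONC than in WT, the GABA and taurine carrier Slc6a13, which went from 3.61 ± 0.49 to 2.10 ± 0.19 FPKM (SD, n = 3). In ONC-S against ONC, 2 of the 21 were higher and 3 lower, beside 7.6% and 6.89% of all genes. The taurine carrier Slc6a6 went from 176 ± 14.47 to 217 ± 21.1 FPKM and the GABA carrier Slc6a11 from 37.0 ± 2.40 to 43.04 ± 0.92 FPKM, while Slc6a13 fell to 1.304 ± 0.37 FPKM and the betaine carrier Slc6a12 from 4.03 ± 0.54 to 2.96 ± 0.44 FPKM. Of 12 mitochondrial carriers, 0 were called in ONC against WT and 1 in ONC-S against ONC, the serine carrier family member Sfxn2, from 9.07 ± 1.74 to 14.3 ± 0.90 FPKM.

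Among 22 tested genes of amino acid sensing at the lysosome, 1 was higher in ONC than in WT, the leucine sensor and ATF4 target Sesn2 (log2 fold change 0.91 ± 0.10). In ONC-S against ONC, 7 were higher and 2 lower. Fnip2, a partner of folliculin, gave 0.76 ± 0.07, Castor2 0.33 ± 0.06, Rptor, which brings substrates to mTOR, 0.32 ± 0.05 and the GTPase Rragc 0.31 ± 0.06. Of 10 genes of glutathione and cystine handling, 2 were higher in ONC than in WT. Srxn1, which repairs oxidised peroxiredoxins, went from 19.9 ± 0.61 to 41.3 ± 1.005 FPKM and Hmox1, which degrades heme, from 1.39 ± 0.16 to 9.45 ± 9.58 FPKM, the latter with an SD as large as its mean. In ONC-S against ONC, 2 of the 10 were higher and 1 lower. Of 8 genes of glutamate and glutamine metabolism, 0 were called in ONC against WT and 1 in ONC-S against ONC, Glud1 (0.24 ± 0.06). The counts of called genes are by edgeR.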
